A study of Mus musculus with 25 samples.

Results

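Macrophage transcripts were examined in cultures of neonatal mouse cardiac myocytes through 31 genes, each with 1 probe set annotated to that gene alone. They were taken from a list of genes that monocytes and macrophages express, out of 19938 genes with a probe set of 1 gene symbol and 35557 probe sets on the array. All 31 were measured. The study asked how the transcriptional repressor CHF1/Hey2 alters the response of cardiac myocytes to serum. TG myocytes came from mice that overexpress CHF1/Hey2 in the myocardium under the mlc2v promoter, which drives a ventricular myosin light chain gene, and WT myocytes from mice without the transgene. RNA was hybridised to Affymetrix Mouse Gene 1.0 ST arrays, 1 array for each culture. The groups were 7 cultures of TG and 7 of WT myocytes given 20% fetal bovine serum for 24 h, and 6 of TG and 5 of WT myocytes kept free of serum. By staining for sarcomeric myosin the study found nearly all cells of each preparation to be myocytes. Animal age beyond neonatal was not given in the sources used here. No source used here states whether the cultures of a group were from different litters, and a p-value here thus reflects only how far these cultures varied.

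Values are log2 intensities after Robust Multichip Analysis (RMA), and the precision depends on how many arrays a group had. Arrays with and without serum stood on different scales: array medians were 5.21 to 5.36 with serum and 4.99 to 5.09 without, and the median SD over the probe sets of an array was 2.57 with serum and 2.12 without. TG and WT were therefore compared within each serum set on the log2 values, and serum only through the percentile of a probe set among the 35557 of its own array. Hey2 itself was higher in every TG culture than in every WT culture of both sets, by 1.81 ± 0.20 (log2 difference ± SE) with serum and 1.58 ± 0.26 without. The difference passed the adjusted test with serum (limma adjusted p = 0.00972) and not without (0.853).

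Macrophages are phagocytes of the innate immune system that settle in the heart before birth and are replenished in part from blood monocytes. They depend on the growth factor receptor Csf1r and on the transcription factor PU.1, the product of Spi1. They take up debris through scavenger and Fc receptors, make the C1q chains of complement, and degrade what they take up with lysosomal enzymes. Enzymatic digestion of a neonatal heart releases them together with myocytes and fibroblasts. Many of the listed genes are shared with other leukocytes (Ptprc, Laptm5, Cd53, Coro1a), and the list by itself does not tell macrophages from monocytes.

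The myocyte cultures gave clear signal from lysosomal and endosomal macrophage genes, and little from several receptors. Lyz2, which encodes lysozyme, lay at a mean within-array percentile of 91.5 over the 25 arrays, Ctss, which encodes the protease cathepsin S, at 86.6, Cd68, which encodes a lysosomal membrane glycoprotein, at 84.1, and Laptm5, which encodes a lysosomal membrane protein of blood cells, at 76.4. These 4 were the highest of the 31, and Ccr2, the chemokine receptor of blood monocytes, was the lowest at 9.12. Probe sets differ in how they respond to their target, so this order is not an order of transcript amounts. Of the 31 members, 24 had a mean log2 value of at least 5 and 7 a lower one (Cd14, Fcgr1, Ptprc, Cd163, Aif1, Ccr2 and Cd52), against 37.8% of the 19938 genes with a lower one.

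Lists of other cell types were read on the same percentiles, with the same limit that levels of different probe sets are not amounts of transcript or of cells. The median percentile of the members per culture was 55.9 to 64.5 in TG and 53.1 to 63.7 in WT cultures with serum, and 47.4 to 60.8 in TG and 48.0 to 61.7 in WT cultures without. For 12 T and B cell markers the median over cultures was 31.6 in TG and 31.6 in WT with serum, and 35.6 in TG and 36.1 in WT without, and 11 of the 12 had a mean log2 value under 5. The same held for 11 of 11 neutrophil markers, 6 of 7 dendritic cell markers and 5 of 8 mast cell markers. Sarcomere genes of cardiac myocytes stood at the top of every array, with a lowest list median of 96.4 in any culture, and 13 fibroblast genes had list medians of 78.6 in TG and 80.3 in WT cultures with serum and 84.0 in TG and 86.9 in WT cultures without. Smooth muscle genes had list medians of 93.4 in TG and 90.8 in WT cultures with serum and 90.9 in TG and 89.9 in WT cultures without, and epicardial genes 87.8 and 90.2 in TG and WT with serum and 72.0 and 83.6 in TG and WT without. Endothelial genes had 55.2 in TG and 59.0 in WT with serum and 51.1 in TG and 51.5 in WT without. The markers of the labelled cell type were thus high, beside signal from genes of several other cell types.

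Lyz2 showed the widest spread between cultures of any member in 3 of the 4 groups. Its log2 value was 9.38 at the lowest, 10.13 at the median and 10.82 at the highest in TG cultures with serum, and 8.52, 10.0003 and 10.96 in WT cultures with serum. Without serum it was 6.70, 9.22 and 10.88 in TG cultures, and the 5 WT cultures had 10.08, 7.00, 9.03, 9.01 and 11.36. The highest culture exceeded the lowest of its group 2.70-fold in TG and 5.42-fold in WT with serum, and 18.1-fold in TG and 20.5-fold in WT without serum, and the groups overlapped throughout.

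Ctss followed the same cultures. It was 8.40, 8.86 and 9.69 (lowest, median and highest log2 value) in TG and 8.08, 8.80 and 9.59 in WT cultures with serum. Without serum TG cultures had 6.92, 8.17 and 9.77, and the WT cultures had 8.89, 7.09, 8.46, 8.43 and 10.32. The same TG and the same WT culture were highest for Lyz2 and for Ctss in each set.

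Cd68, the usual histological marker of macrophages, was 8.06, 8.35 and 9.27 in TG and 8.15, 8.53 and 8.93 in WT cultures with serum. Without serum it was 7.30, 7.80 and 8.86 in TG cultures, and 8.11, 7.88, 7.85, 7.60 and 9.37 in the WT cultures. Laptm5 was 7.61, 7.91 and 8.78 in TG and 7.31, 7.85 and 8.38 in WT cultures with serum. Without serum it was 5.99, 6.88 and 8.13 in TG cultures, and 7.48, 6.33, 6.89, 6.81 and 8.24 in the WT cultures. For both genes culture 6 of TG and culture 5 of WT were the highest without serum.

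**Figure D1:**
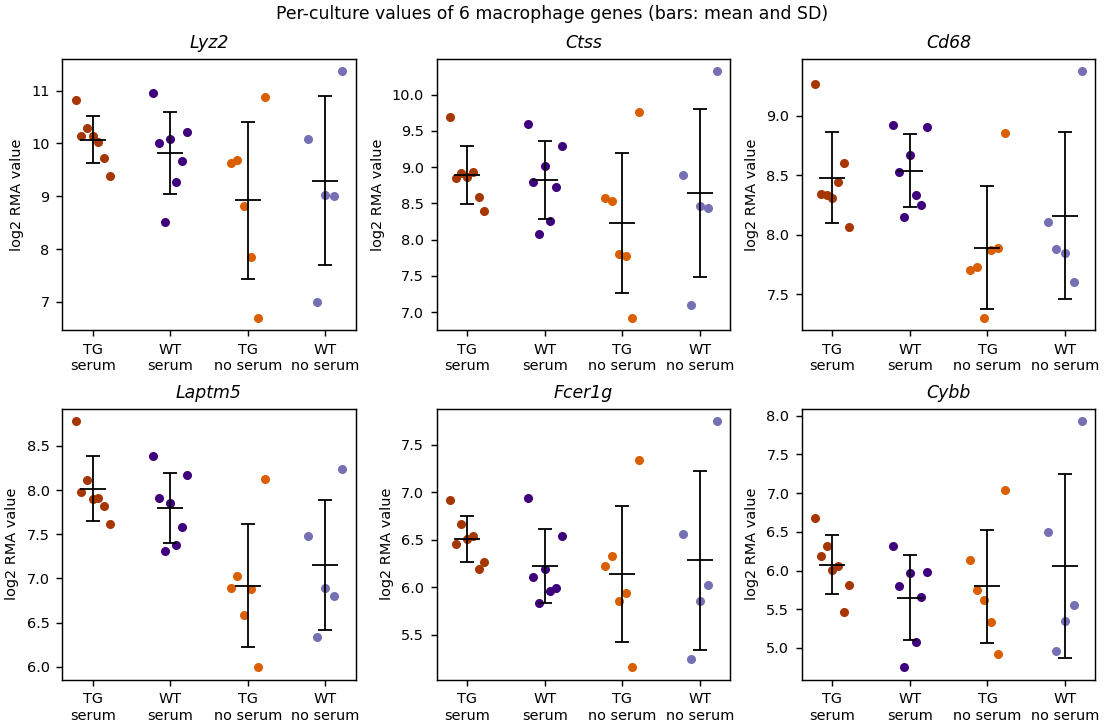
Log2 RMA values of Lyz2, Ctss, Cd68, Laptm5, Fcer1g and Cybb, 1 point for each culture, with bars at the mean and SD of each group (n = 7 TG serum, 7 WT serum, 6 TG no serum, 5 WT no serum). Groups overlap for every gene, and without serum 1 TG culture and 1 WT culture lie above the rest of their group.

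The other members are given by role. Among scavenger and recognition receptors, group means of Mrc1, the mannose receptor, were 5.98 ± 0.38 in TG and 5.67 ± 0.48 in WT with serum and 4.71 ± 0.48 in TG and 4.72 ± 0.39 in WT without (log2, SD, n = 7, 7, 6 and 5). Msr1, a scavenger receptor for modified lipoproteins, had 6.05 ± 0.34 and 5.67 ± 0.56 in TG and WT with serum, and 4.59 ± 0.43 and 4.76 ± 0.60 in TG and WT without. Trem2, a lipid receptor that signals through Tyrobp, stayed between 5.32 and 6.48 in all cultures. Clec4n, the fungal receptor dectin-2, had the largest SD of the members in TG cultures with serum, 0.90. Cd163, the haemoglobin receptor, and Cd14, the co-receptor for endotoxin, were dim on average and ranged over 3.20 to 4.06 and 4.10 to 5.18.

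Csf1r and Spi1, the growth factor receptor and the lineage transcription factor, spread less than the median member in every group, but more than the median over all genes. Csf1r had 7.08 ± 0.27 in TG and 7.13 ± 0.18 in WT with serum, and 6.11 ± 0.24 in TG and 6.34 ± 0.31 in WT without. Spi1 had 5.40 ± 0.18 and 5.33 ± 0.30 in TG and WT with serum, and 4.97 ± 0.14 and 5.05 ± 0.23 in TG and WT without. The signalling adaptors ranged more widely than the Fc receptors in each serum set, and the ranges given here span both sets. Fcer1g, the common Fc receptor gamma chain, ranged over 5.15 to 7.75 across the cultures and Tyrobp (DAP12) over 5.09 to 7.28, against 4.50 to 5.82 for Fcgr3 and 4.57 to 5.29 for Fcgr1. Cybb, the catalytic subunit of the phagocyte NADPH oxidase, ranged over 4.75 to 7.93 and its cytosolic partner Ncf1 over 4.77 to 6.28.

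Most members were highest in the same culture of a group, and fewer shared the lowest culture. Culture 1 was highest for 25 of the 31 genes in TG cultures with serum and for 21 in WT cultures with serum. Without serum, culture 6 was highest for 27 in TG and culture 5 for 28 in WT. The lowest cultures were 7 in TG (14 genes) and 3 in WT (18 genes) with serum, and 5 in TG (22 genes) and 2 in WT (16 genes) without. In TG with serum, culture 6 was lowest for 12 genes, close to the 14 of culture 7. The mean of the members, centred on the group, spanned 0.74 in TG and 0.89 in WT with serum and 1.09 in TG and 1.26 in WT without. On the log2 scale this is a change of the whole list of 1.36-fold to 1.75-fold above its group mean in the highest culture of each group. In bulk RNA, fewer macrophages and less macrophage RNA per cell cannot be told apart.

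**Figure D2:**
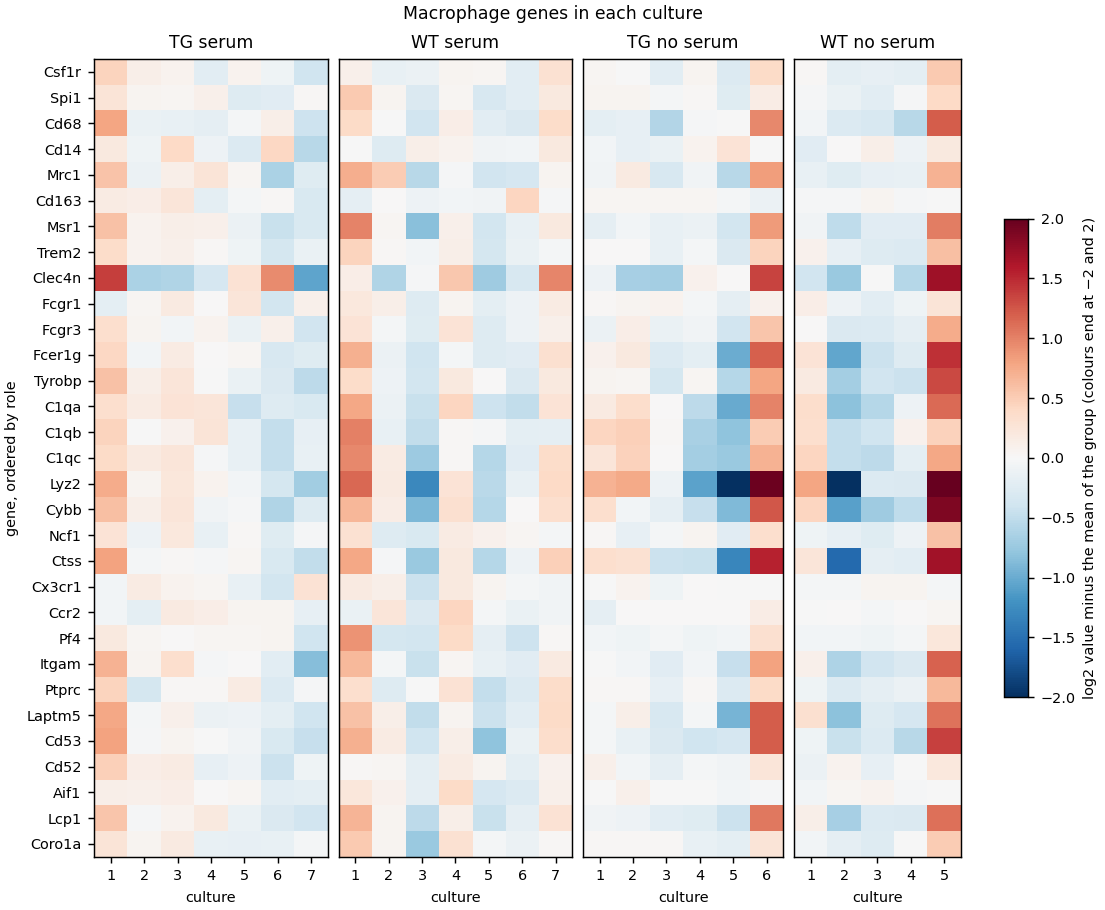
Log2 value of each of the 31 genes (rows, by role) in each culture (columns) minus the mean of its group, in red above and blue below the mean; colours end at −2 and 2, which Lyz2 passes. Culture 1 of both serum groups, culture 6 of TG without serum and culture 5 of WT without serum are red for 21 to 28 genes at their group's highest value.

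Pairs of members correlated at a median Pearson r of 0.64 with serum (14 arrays, group means removed) and 0.80 without (11 arrays), against 0.001 and 0.013 over all pairs of genes. Of the 465 pairs of members, 447 were above 0 and 307 above 0.5 with serum, and 376 and 325 without. All genes of an array share its RNA, hybridisation and normalization, and no p is given. Without the culture in which each group was highest, the median r was 0.53 with serum and 0.43 without. The median SD between cultures was 0.29 for the members in TG and 0.35 in WT with serum, and 0.43 in TG and 0.42 in WT without, against 0.142, 0.160, 0.103 and 0.097 over all genes.

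Most members followed the mean of the other 30. In 18 of the 31 the lower of the r with serum and the r without was above 0.8. Lcp1, which encodes the leukocyte actin bundler L-plastin, was closest (0.97 with serum, 0.98 without), then Ctss (0.97, 0.96), Laptm5 (0.96, 0.97), Msr1 (0.95, 0.97) and Fcer1g (0.94, 0.99). Lyz2 had 0.95 with serum and 0.90 without. By Spearman rank correlation the values without serum were lower for some members and higher for others. Cd68, 1 of the 18, had 0.51 by rank against r of 0.85, and Clec4n 0.36 against 0.81. Pf4 had 0.50 against 0.86, and Lyz2 0.94 against 0.90. For Cd68, Clec4n and Pf4 the r without serum thus leaned on the size of the differences between cultures more than on their order.

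In 7 members the lower r was under 0.5 (Cd14, Fcgr1, Cd163, Aif1, Cx3cr1, Ccr2 and Clec4n), and all of these but Cx3cr1 and Clec4n were dim. Cd163 had r of 0.096 with serum and -0.35 without, Cd14 0.27 and -0.03, Ccr2 0.24 and 0.37. Cx3cr1, the receptor for fractalkine on resident macrophages and microglia, had 0.33 with serum and -0.12 without. Aif1, which encodes the calcium-binding protein Iba1, had 0.79 with serum and -0.14 without. Over the 11 cultures without serum Aif1 spanned 0.16, Cx3cr1 0.16, Cd163 0.22, Ccr2 0.32, Cd14 0.50, Fcgr1 0.55 and Clec4n 2.75 on the log2 scale, so the first 4 had little range and Clec4n a wide one. Several cultures without serum also held an identical value of Cx3cr1 (4.86), Cd163 (3.85), Aif1 (4.21) or Ccr2 (3.49). The r of these 4 genes without serum thus includes tied values. Ties were not particular to them: Ptprc also held an identical value (4.54) in several cultures without serum, and had r of 0.96 there.

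Among the 19907 genes that are no members, 15 (0.0754%) had a lower r above 0.9 with the mean of the members, and 6 of these stood in separate lists of further or resident macrophage genes. The 10 with the highest lower r were Mpeg1 (0.96 with serum, 0.98 without), a pore-forming protein of phagosomes, Sirpa (0.96, 0.98), the receptor for CD47, Pld4 (0.95, 0.98), Adgre1 (0.96, 0.95), which encodes the macrophage antigen F4/80, Nckap1l (0.94, 0.99), Cd84 (0.94, 0.96), C5ar1 (0.93, 0.97), the receptor for complement C5a, Trf (0.92, 0.99), which encodes transferrin, Stab1 (0.92, 0.95) and Lilr4b (0.92, 0.94). Of 30 measured further macrophage genes, 16 had both r above 0.5, against 1.00% of the genes that are no members. Apoe had 0.98 with serum and 0.90 without, and Ctsd, a lysosomal protease of all cells, 0.08 and 0.18.

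Of 10 genes ascribed to resident cardiac macrophages, 1 had both r above 0.5, Stab1, and 5 of the 10 were dim. The mean of this list nevertheless had r of 0.76 with serum and 0.93 without. Lyve1 had r of 0.09 with serum and -0.28 without and Timd4 -0.41 in both, and both genes were dim (mean log2 values of 4.68 and 3.91). Folr2 had 0.59 with serum and 0.41 without. Class II genes of antigen presentation did not follow the members: 0 of 7 had both r above 0.5, and H2-Ab1 had -0.29 with serum and -0.94 without. Of these 7 genes 4 were dim, and H2-Ab1 had a mean log2 value of 5.02, close to the cut of 5, which limits what can be read from its r. Of 12 cytokines and chemokines, Ccl3, which attracts monocytes, had 0.69 with serum and 0.97 without and was the only one with both r above 0.5. Tnf had 0.49 and 0.76. The mean of these 12 genes, 9 of them dim, had r of 0.72 with serum and 0.92 without.

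Means of other cell type lists were also set against the mean of the members. The smooth muscle list (9 of 9 genes measured) had r of 0.45 with serum and 0.87 without, and spanned -0.17 to 0.13 in TG and -0.07 to 0.12 in WT with serum and -0.32 to 0.39 in TG and -0.41 to 0.30 in WT without, around its group means. The 16 sarcomere genes had 0.26 with serum and 0.47 without. Their mean was lowest in culture 3 of WT with serum (-0.53 around the group mean), culture 5 of TG without (-0.85) and culture 2 of WT without (-0.70). These cultures were also lowest for the members. No such match is given for TG with serum, where the members were lowest in culture 7. Among the other lists, 13 fibroblast genes 0.096 and 0.38, 13 endothelial genes -0.12 and 0.08, 9 epicardial genes -0.13 and -0.62 and 11 neutrophil markers -0.29 and -0.53. None of these lists is at 0, since RMA values have no zero. The part of smooth muscle and myocyte content in the co-variation was not tested.

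PU.1 binds purine-rich sites with the core GAGGAA, and its gene Spi1 is a member. RefSeq promoters (GRCm38.p6) were matched by gene ID for 23 of the 31 genes. The core, on either strand, occurred in the 250 bases before the start in 14 of the 23 (60.9%), against 25.9% of the 27025 genes with a promoter in the same table. A match is a description and not a bound site. All 250 bases were searched for every gene. The 6 stretches below are the part of them that lies outside annotated genes, which is shorter for Lcp1 (232 bases) and C1qc (228 bases), and are shown for genes that the results turn on, written 5′ to 3′ on the strand of the gene, with the core in capitals (GAGGAA, or TTCCTC where it is on the other strand). Ctss (chr3:95526536-95526785, plus strand), Cd53 (chr3:106790150-106790399, minus strand) and C1qb (chr4:136886201-136886450, minus strand) carry it on the strand of the gene and C1qc (chr4:136892937-136893164, minus strand) on the other. Lcp1 (chr14:75130873-75131104, plus strand), which followed the other members most closely, and Cx3cr1 (chr9:120068297-120068546, minus strand) hold no match in these windows. Cx3cr1 had little range without serum, where its r with the other members was low.
Ctss: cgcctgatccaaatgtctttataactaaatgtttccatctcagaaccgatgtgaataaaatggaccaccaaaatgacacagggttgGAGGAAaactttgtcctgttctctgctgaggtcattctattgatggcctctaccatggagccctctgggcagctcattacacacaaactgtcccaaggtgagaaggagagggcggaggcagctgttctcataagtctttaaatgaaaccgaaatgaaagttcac
Cd53: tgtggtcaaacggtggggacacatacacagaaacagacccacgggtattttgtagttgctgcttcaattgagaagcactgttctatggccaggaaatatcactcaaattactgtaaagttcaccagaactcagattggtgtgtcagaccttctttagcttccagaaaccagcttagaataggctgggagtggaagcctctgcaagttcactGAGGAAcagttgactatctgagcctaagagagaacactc
C1qb: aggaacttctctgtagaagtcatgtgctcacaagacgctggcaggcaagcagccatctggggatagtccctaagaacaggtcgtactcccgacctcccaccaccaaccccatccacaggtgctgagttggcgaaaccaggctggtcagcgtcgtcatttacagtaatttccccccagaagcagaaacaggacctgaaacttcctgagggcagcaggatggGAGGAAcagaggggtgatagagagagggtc
C1qc: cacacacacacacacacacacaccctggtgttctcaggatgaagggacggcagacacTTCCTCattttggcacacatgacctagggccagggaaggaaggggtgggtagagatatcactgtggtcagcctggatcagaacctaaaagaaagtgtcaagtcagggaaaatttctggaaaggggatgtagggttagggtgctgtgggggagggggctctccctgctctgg
Lcp1: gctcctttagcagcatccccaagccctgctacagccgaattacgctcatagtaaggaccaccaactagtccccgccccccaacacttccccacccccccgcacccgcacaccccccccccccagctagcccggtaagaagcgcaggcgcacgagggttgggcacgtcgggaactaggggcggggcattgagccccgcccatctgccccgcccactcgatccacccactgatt
Cx3cr1: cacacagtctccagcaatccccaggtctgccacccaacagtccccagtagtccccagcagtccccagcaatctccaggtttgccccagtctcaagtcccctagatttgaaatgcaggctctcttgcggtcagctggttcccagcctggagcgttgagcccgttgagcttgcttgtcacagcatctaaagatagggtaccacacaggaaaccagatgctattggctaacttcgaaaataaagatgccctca

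The comparison of TG with WT cultures asks whether the transgene, driven in myocytes, went with a different level of macrophage transcripts. With serum, 0 of the 31 genes passed the adjusted test in limma, against 0.00844% of all probe sets (3 of 35557). At an unadjusted p under 0.05 there was 1 member, against 10.7% of all probe sets. TG minus WT was above 0 for 21 genes and below 0 for 10 (25 and 6 once array medians were set equal), with a median of 0.10. Over all probe sets 43.5% were above 0, with a median of -0.02. For all 31 genes TG and WT overlapped, where 0.101% of all probe sets lay wholly higher in TG and 0.155% wholly lower, and adjusted p ranged from 0.449 to 0.972. The interval of the difference allowed log2 changes of -1.14 to 0.92 over the members.

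The members with the smallest p with serum were Cd52, Cybb, Fcer1g and Cd14. Cd52, a small glycoprotein of the leukocyte surface, was 4.30, 4.64 and 5.21 (lowest, median and highest) in TG cultures and 4.28, 4.52 and 4.64 in WT cultures, a difference of 0.26 ± 0.12 (SE, limma adjusted p = 0.449). Cybb was 5.47, 6.06 and 6.68 in TG and 4.75, 5.80 and 6.31 in WT cultures, a difference of 0.43 ± 0.23 (0.523). Fcer1g was 6.19, 6.51 and 6.92 in TG and 5.83, 6.11 and 6.94 in WT cultures, a difference of 0.28 ± 0.16 (0.540). Cd14 was 4.10, 4.58 and 5.08 in TG and 4.63, 4.89 and 5.08 in WT cultures, a difference of -0.23 ± 0.14 (0.565). Each of these differences was smaller than the range within either group. Over all alternatives run, the adjusted p of these 4 genes stayed between 0.221 and 0.738.

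By role, the 5 leukocyte membrane proteins (median difference 0.22), the 3 C1q chains (0.26) and the 3 actin-binding proteins (0.12) were all above 0 with serum. The 5 were Itgam, Ptprc, Laptm5, Cd53 and Cd52. The 7 scavenger and recognition receptors were divided, 3 above and 4 below. None of these genes passed the test, and no test was made of a role as a group. The further macrophage list had 19 of 30 differences above 0, with a median of 0.04 and 0 calls. Other cell type lists moved beside it without calls: 15 of 16 sarcomere genes were above 0 (median 0.30) and 13 of 13 endothelial genes below 0 (median -0.27). Their part in the differences of the members was not tested.

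Without serum, 0 of the 31 genes passed in limma, against 0.0% of all probe sets, and 0 members had an unadjusted p under 0.05, against 5.64% of all probe sets. TG minus WT was below 0 for 28 genes and above 0 for 3 (24 and 7 once array medians were set equal), with a median of -0.14. Over all probe sets 54.7% were below 0, with a median of -0.01. The direction for the members depended on which cultures were kept. Without culture 5 of WT, the culture highest for 28 of the genes, the median was 0.02 and 22 of the 31 differences were above 0. Without culture 6 of TG, the culture highest for 27, the median was -0.26 and 30 were below 0. Without both, which was tried only once the values were known, the median was -0.06 and 27 were below 0. All 31 genes overlapped between TG and WT, where 0.172% of all probe sets lay wholly higher in TG and 0.231% wholly lower. Adjusted p ranged from 0.887 to 0.996, and the intervals allowed log2 changes of -2.21 to 1.47 over the members. The further macrophage list was below 0 for 22 of 30 genes (median -0.09), the fibroblast list for 11 of 13 (-0.08), and the sarcomere list above 0 for 13 of 16 (0.11), with 0 calls, and their part in the differences of the members was not tested.

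The smallest p without serum belonged to Cd14, Csf1r, Ncf1 and Cd163. Cd14 was 4.68, 4.80 and 5.11 in TG cultures and 4.77, 5.00, 5.11, 4.89 and 5.18 in the WT cultures, a difference of -0.16 ± 0.09 (SE, limma adjusted p = 0.887). Csf1r was 5.84, 6.14 and 6.502 in TG cultures and 6.36, 6.14, 6.17, 6.14 and 6.86 in the WT cultures, a difference of -0.22 ± 0.15 (0.895). Ncf1 was 4.77, 4.99 and 5.34 in TG cultures and 5.13, 5.05, 4.97, 5.11 and 5.81 in the WT cultures, a difference of -0.22 ± 0.15 (0.895). In Csf1r and Ncf1 culture 5 of WT was again the highest. Cd163 was 3.70, 3.85 and 3.85 in TG cultures and 3.85, 3.85, 3.92, 3.85 and 3.87 in the WT cultures, a difference of -0.05 ± 0.04 (0.895). Several cultures of both genotypes held the identical Cd163 value, 3.85.

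The difference between the TG effect with serum and that without was tested in 1 fit of the 25 arrays. In limma 0 of the 31 genes passed, against 0.00281% of all probe sets, and 0 members had an unadjusted p under 0.05, against 4.26% of all probe sets. The difference was above 0 for 28 genes, with a median of 0.21, against 45.9% of all probe sets and a median of -0.01. Without culture 5 of WT without serum the difference was above 0 for 22 of the genes, with a median of 0.06. Its direction thus leaned in part on that culture. The difference was largest relative to its error for Msr1, at 0.54 ± 0.37 (SE, limma adjusted p = 1.00). Both sets of cultures enter this difference.

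**Figure D3:**
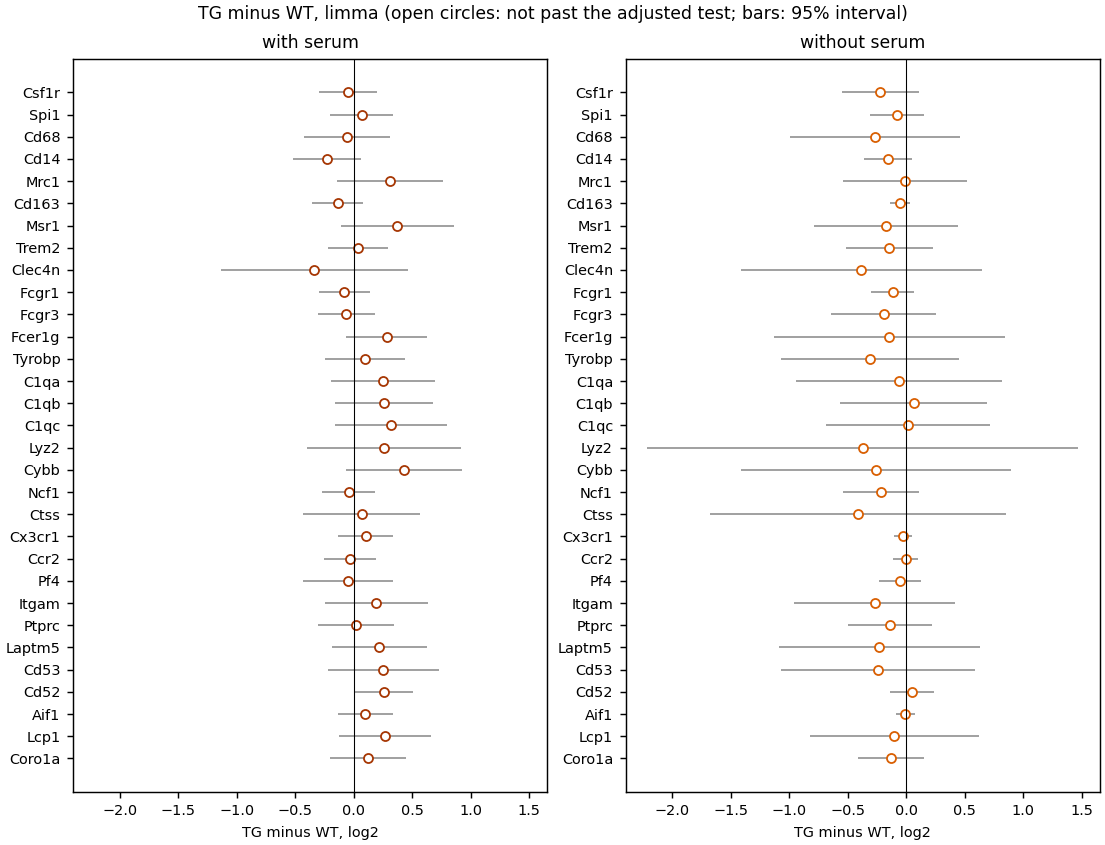
TG minus WT log2 difference of each gene with its 95% interval from limma, with serum (left, 7 against 7 cultures) and without (right, 6 against 5). All circles are open because 0 of 31 genes passed the adjusted test. Of the 31, 21 lie above 0 with serum (43.5% of all probe sets) and 28 below 0 without (54.7%).

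Serum was compared through within-array percentiles. In TG cultures 13 of the 31 genes (41.9%) passed the adjusted test in limma, against 59.9% of all probe sets, and in WT cultures 10 (32.3%), against 58.0%. Higher with serum were 11 in TG (29.8% of all probe sets) and 9 in WT (28.8%), and lower 2 in TG (30.1%) and 1 in WT (29.2%). The share of members past the test was below that of the array in both genotypes. Array sets and serum cannot be told apart, since all arrays with serum share 1 scale and all arrays without share another.

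Of the members, 9 passed in the direction of serum in both genotypes. C1qc, a chain of complement C1q, moved most, by 20.1 ± 3.77 percentile points in TG (SE, limma adjusted p = 7.96e-05) and 17.3 ± 3.96 in WT (0.000718). Its percentile was 66.3, 71.3 and 75.3 (lowest, median and highest) in TG cultures with serum, against 38.9, 54.3 and 61.2 in TG cultures without. In WT cultures with serum it was 60.5, 68.1 and 78.2, against 42.6, 48.3 and 61.7 at the lowest, median and highest without. The TG groups did not overlap, and the WT groups did.

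Msr1 was higher with serum by 18.2 ± 3.76 points in TG (limma adjusted p = 0.000236) and 11 ± 3.96 in WT (0.0210). It had 54.7, 60.2 and 65.3 in TG cultures with serum against 33.6, 38.9 and 55.7 without, and 44.4, 55.1 and 65.4 in WT cultures with serum against 33.1, 40.0 and 59.9 without. In WT the call was lost in a limma fit of WT arrays alone (adjusted p = 0.0547) and without culture 2, 3 or 4 of WT without serum (0.0822, 0.0505 and 0.0523).

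Pf4, a platelet chemokine that tissue macrophages also express, was higher by 13.99 ± 1.998 points in TG (limma adjusted p = 2.51e-06) and 13.4 ± 2.10 in WT (9.82e-06). It had 51.5, 57.6 and 59.1 in TG cultures with serum against 40.9, 42.0 and 48.6 without, and 51.5, 55.0 and 66.6 in WT cultures with serum against 41.5, 42.2 and 48.4 without. Neither genotype overlapped between serum and no serum. Across the members 4 genes in TG and 2 in WT lay wholly above their cultures without serum, against 16.7% and 17.1% of all probe sets.

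The other 6 genes that passed upward in both were Mrc1 (15.2 points in TG, 10.96 in WT), C1qb (12.2, 9.96), Cx3cr1 (10.98, 9.41), Ncf1 (8.63, 6.11), Csf1r (6.07, 4.46) and Cd163 (3.08, 3.27), the last with the opposite direction on the log2 values as deposited. Cd163 passed narrowly (limma adjusted p = 0.0483 in TG, 0.0485 in WT), and its call was lost in 18 of the 25 fits that left out 1 culture in TG and in 17 of 25 in WT. The small spread of Cx3cr1 without serum partly reflects an identical log2 value in several cultures. C1qb lost its call in WT without culture 2 or 3 of WT without serum or culture 1 of WT with serum. Ccr2 passed downward in both, by -4.38 ± 1.37 points in TG (limma adjusted p = 0.00857) and -3.97 ± 1.45 in WT (0.0225). It had 4.6, 8.1 and 9.5 in TG cultures with serum against 6.6, 11.7 and 15.9 without, and 3.6, 6.5 and 13.2 in WT cultures with serum against 10.3, 11.5 and 12.8 without, at the bottom of the array in every culture. In WT its call was lost without culture 5 of WT without serum (0.0550) and without culture 3 of WT with serum (0.0521). Ptprc, the common leukocyte antigen CD45, and C1qa passed upward, and Cd14 downward, in TG, with 9.05, 8.76 and -5.04 points in TG and 6.15, 5.78 and -4.54 in WT. The calls of C1qa and Cd14 in TG were lost in 7 and 8 of the 25 fits that left out 1 culture. The test of the difference between the TG and WT effects of serum on percentiles passed for 0 probe sets in limma, with 1692 probe sets and 0 members at an unadjusted p under 0.05.

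The other 18 genes passed in neither genotype. Among them were Lyz2 (5.68 points in TG, 2.12 in WT), Ctss (2.65, -0.87), Cd68 (1.45, -0.19), Lcp1 (-0.45, -4.17) and Cybb (-0.21, -7.93). On the log2 values as deposited, the sign turned for Ctss and Cd68 in WT and for Lcp1 and Cybb in TG. Laptm5 (7.21, 2.73) came closest to a call in TG (limma adjusted p = 0.0506), and passed in 5 of the 25 fits that left out 1 culture. All 4 of the Fc receptor and adaptor genes and all 3 of the actin-binding genes were in this set. All 3 C1q chains and all 3 of Cx3cr1, Ccr2 and Pf4 passed in TG, and in WT all of these except C1qa. Of all probe sets 59.9% passed in TG and 58.0% in WT, and no test was made of a role as a group.

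**Figure D4:**
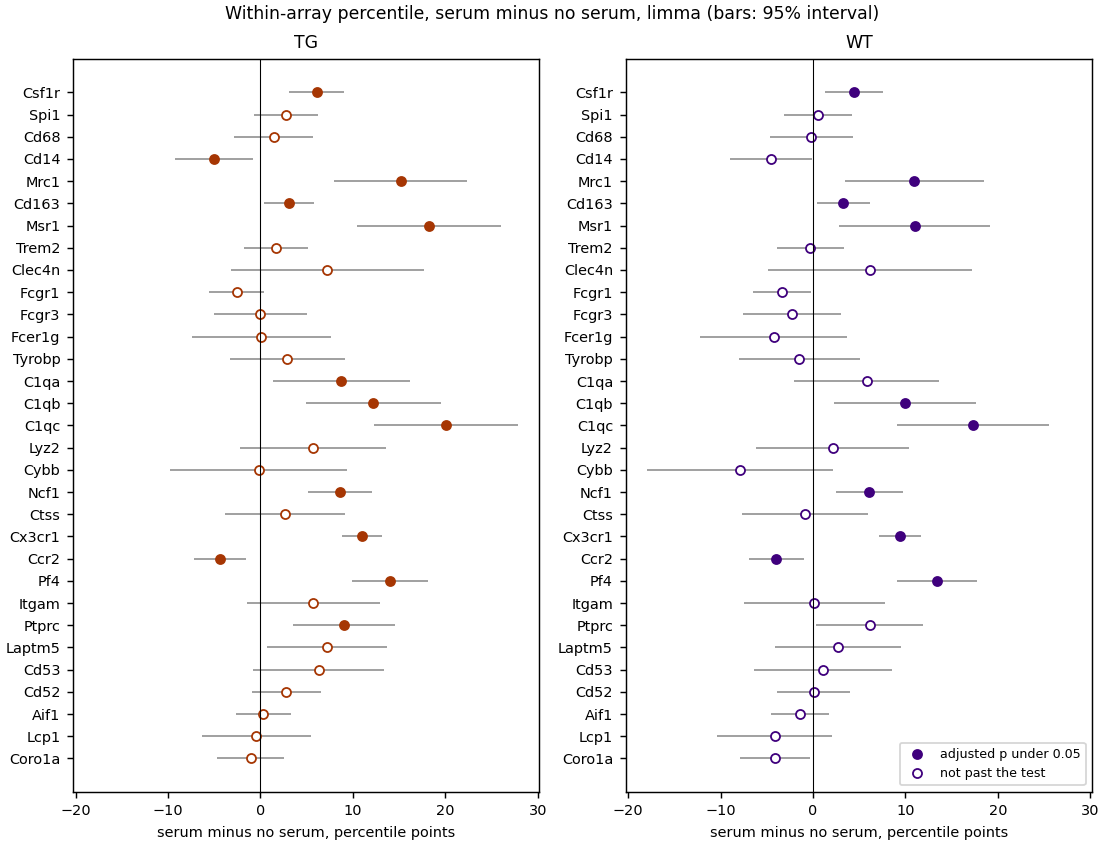
Serum minus no serum in percentile points of the array, with the 95% interval from limma, for each gene in TG (left, 7 against 6 cultures) and WT (right, 7 against 5). Filled circles passed the adjusted test (13 in TG, 10 in WT); C1qc lies farthest to the right in both.

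C1qc and Ctss, a pair chosen after their values were seen, showed how members parted company between the serum sets although both followed the macrophage mean within each. C1qc stood below Ctss by 18.7 to 13.9 percentile points in TG and by 20.8 to 13.9 in WT cultures with serum, and by 41.9 to 29.6 in TG and 45.5 to 31.6 in WT cultures without. The gap in no culture with serum reached that of any culture without. This is a description of 2 probe sets, with no test.

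**Figure D5:**
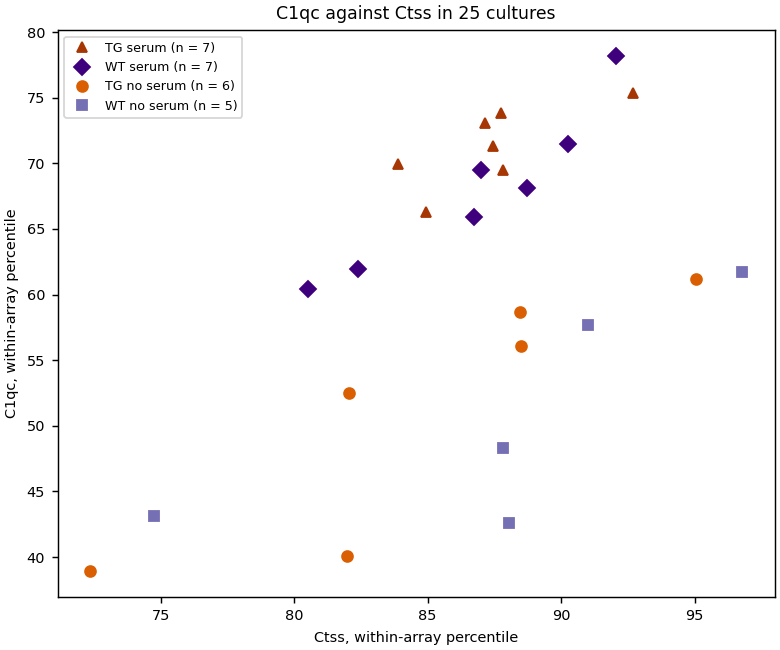
Within-array percentile of C1qc against that of Ctss, 1 point for each of 25 cultures, by group. Cultures with serum (7 TG, 7 WT) lie on a band above those without (6 TG, 5 WT) at the same Ctss percentile, and in each band C1qc tends to be higher in cultures with higher Ctss.

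Genes around the members also moved in percentile. Of the 30 further macrophage genes, 7 were higher and 8 lower with serum in TG, and 3 and 10 in WT, and among 10 resident macrophage genes 3 were higher and 4 lower in TG and 2 and 3 in WT, against 29.8% and 30.1% of all probe sets in TG and 28.8% and 29.2% in WT. Of 2 ligands of Csf1r, Il34 was higher by 16.6 ± 1.56 points in TG (limma adjusted p = 4.34e-09) and 15.2 ± 1.64 in WT (4.81e-08), and Csf1 by 4.24 ± 0.955 in TG and 4.24 ± 1.01 in WT, and both passed the test. Folr2 was higher by 15.1 ± 1.95 in TG and 15.3 ± 2.05 in WT. Adgre1, which had followed the members within each set, did not pass (5.89 ± 3.56 in TG, 1.24 ± 3.75 in WT).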

How the data were processed

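RNA from 25 cultures was hybridised to 1 array each. The deposited values are log2 intensities that the authors made with Robust Multichip Analysis in Affymetrix Expression Console 1.1, and whether the sets with and without serum were normalized together is not given in the sources used here. Probe sets were named through GEO's platform annotation: of 35557, 21789 had 1 gene symbol, 1621 several and 12147 none. Groups came from the labels. TG and WT were compared within each serum set with limma 3.58.1 in R 4.3.3 (1 mean per group, eBayes), and serum through within-array percentiles in a fit of all arrays. P-values were adjusted by Benjamini-Hochberg over all probe sets, at a threshold of 0.05. Correlations used values with group means removed (Python 3.11.15, numpy 2.4.6, pandas 2.3.3, scipy 1.17.1). The fits were tested on simulated data. Full values are given for the 4 members with the smallest p in each TG and WT comparison, the 3 that changed most with serum in both genotypes in each direction, and the 4 with the highest percentile, and the members and gene lists were chosen with earlier results of these data known. Alternatives were other normalizations, weights and filters, a replicate block and leaving out each culture. Same-numbered cultures did not deviate together, but the study's figures number the cultures without serum differently from the labels, so shared preparations could not be tested.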

Additional observations from a re-analysis of the deposited data

Results flagged for a closer look

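In 23 of the 124 combinations of a gene and a group, 1 culture lay far from the others of its group by Dixon's criterion, which chance alone meets in about 1 in 20 groups. The share over all genes is not given, so this count is not read as a trait of the members. Genes of 1 array are not independent, and most of these values came from the few cultures that were highest for most members. In culture 6 of TG without serum the high log2 values were those of Cd68 (8.86), Itgam (5.85), Msr1 (5.44), Cd53 (7.03), Lcp1 (7.51) and Pf4 (4.95). In culture 5 of WT without serum they were those of Cd68 (9.37), Fcgr3 (5.82), Ptprc (5.31), Mrc1 (5.42), Msr1 (5.79), Ncf1 (5.81), Cd53 (7.43) and Pf4 (4.92). Culture 1 of TG with serum was far above the rest in Laptm5 (8.78), Cd53 (7.57) and Ctss (9.69), and culture 1 of WT with serum in C1qb (7.14). Low values stood apart for Pf4 in culture 7 of TG with serum (5.44) and for Cx3cr1 in culture 3 of WT with serum (5.41). The others were high values of genes with a narrow range, Cd163 in culture 6 of WT with serum (4.06) and in culture 3 of WT without (3.92), and Aif1 in culture 2 of TG without serum (4.32). Without serum, several of the other cultures held identical values of Cd163 in WT and of Aif1 in TG.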

How the results depend on the processing

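No member passed in either comparison of TG with WT, or in their difference, under any alternative run. The count of all probe sets that differed between TG and WT with serum, 3, was 141 in a fit of all arrays, 5 with centred arrays, 5 without dim probe sets, 1 with probe sets averaged per gene and 0 without the highest cultures, a choice made after seeing the data. The count for the difference between serum sets, 1, was 0 on percentiles, 0 after quantile normalization of all arrays and 6 with array weights. The serum counts of 21298 in TG and 20617 in WT were 13544 and 13153 among probe sets of 1 gene and 10867 and 10553 without dim ones, which tested fewer probe sets. On the deposited log2 values, where the serum sets stand on different scales, 20 members passed in TG. The share of all probe sets is not given for that fit, so this count is not read as a trait of the members. The median r between members was 0.63 by Spearman and 0.43 without the highest cultures, in cultures without serum, and 0.76 without dim members and 0.53 without the highest cultures, in cultures with serum. The cause of these changes was otherwise not tested.

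With 1 culture left out at a time, the counts of all probe sets were 1 to 3 for TG against WT with serum, 0 without, 0 to 4 for the difference, 20491 to 21403 for serum in TG and 19430 to 20740 in WT. Members called for serum numbered 10 to 14 in TG and 7 to 11 in WT. The median difference of the members was 0.03 to 0.16 with serum and -0.26 to 0.02 without, and the median r 0.60 to 0.66 with serum and 0.70 to 0.83 without.

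Same-numbered cultures did not deviate together (r of -0.36 to 0.06 between TG and WT with serum and -0.45 to 0.15 without). The study's figures number the cultures without serum differently from the labels. These r thus do not tell whether cultures shared a preparation. With the number of the label as a replicate block, 1 probe set passed for TG against WT with serum and 0 for the difference, 6 members passed for serum in WT and 14 in TG. The share of all probe sets is not given for these serum fits, so their counts are not read as a trait of the members. In WT the calls of Msr1 (limma adjusted p = 0.147), Ccr2 (0.125), Mrc1 (0.0801) and Cd163 (0.0530) were lost, and in TG that of Cd14 (0.239) was lost while Clec4n (0.0282) and Spi1 (0.0353) passed. Ccr2 also lost its call without the highest cultures in TG (0.0578) and WT (0.0805) and in WT among probe sets of 1 gene (0.0678). Dim genes near the bottom of the scale limit what can be read for Ccr2, Cd163 and Aif1.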
